A study of Homo sapiens with 18 samples.

Results

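The 46 genes described here encode nuclear receptors, and they were taken by gene symbol from the 28395 genes of the deposited RNA-seq tables. All 46 symbols were in both tables. A total of 33 reached a normalised read count of at least 10 in at least 3 libraries of 1 table and were tested, while the other 13 were silent or nearly so. The data come from K562, a human erythroleukaemia line that does not make the transcriptional corepressor BASP1. Stable transfection gave V-K562 (empty vector), B-K562 (wild type BASP1) and G-K562 (BASP1-G2A, which lacks the glycine that carries the N-terminal myristoyl group). Each line is a pool of transfected cells kept in G-418, so every line shares the drug selection and each line is 1 pool. RNA-seq and ATAC-seq, which maps chromatin that a transposase can enter, were each done on 3 samples per line. Since the labels do not say that these samples came from separate transfections, p-values measure the spread between samples of 1 pool. A difference between lines therefore cannot be told apart from a difference between pools.

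Nuclear receptors are transcription factors, most of them with a zinc finger domain that binds DNA. Most also have a pocket that binds a small lipophilic ligand such as a steroid, thyroid hormone, retinoic acid, vitamin D or an oxysterol. Many bind as heterodimers with a retinoid X receptor to repeats of a short half-site, whereas steroid receptors bind as homodimers. Without ligand several of them hold corepressors such as NCOR1, and ligand exchanges these for coactivators such as NCOA1. In blood cells the retinoic acid and vitamin D receptors are known for their roles in myeloid differentiation and the glucocorticoid receptor for stress erythropoiesis.

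BASP1 transcript checked the labels. It stood at 7, 5 and 7 normalised reads in the 3 V-K562 libraries, at 6849, 6618 and 6189 in B-K562 and at 9323, 12538 and 8124 in G-K562. The RNA-seq libraries summed to between 32074895 and 33229588 normalised reads, and any 2 libraries of 1 line correlated at 0.9922 or above across genes. Of the erythroid markers, 10 of 10 rose in B-K562 by the adjusted p alone, against 38.6% of all genes tested. Only 1 of them, HBZ, rose by over 2-fold, against 6.46% of all genes. In G-K562 8 fell (33.3% of all genes), 6 of them by over 2-fold (10.3% of all genes), while TFRC rose there. Their summed level lay between 125771 and 142109 in V-K562, between 218477 and 222391 in B-K562 and between 69770 and 75542 in G-K562. Among the megakaryocyte markers ITGA2B carried the sum, which was 4229 to 4558 (V-K562), 1589 to 1861 (B-K562) and 696 to 1074 (G-K562). Of the lymphoid markers, whose sum was 543 to 684, 240 to 257 and 275 to 383 in the same order, CD3D fell by over 2-fold in both lines, and MS4A1 was 0 in every library. The monocyte and neutrophil markers summed to at most 118 and the fibroblast and epithelial markers to 2064 to 2906, with ELANE at 0 in B-K562. V-K562 replicate 1 held 143 reads of KRT5 against 0 in the other V-K562 libraries, and B-K562 replicate 1 held 575 reads of COL3A1 against 4 and 2. Leaving out either of these libraries left the number of receptor genes called in each direction as given below. The part of these marker shifts in the receptor results was not tested.

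The transcript starts of RARB, THRB, NR2F1 and NR3C2 each lay in an ATAC-seq region that passed the test with a fitted change of at least 2-fold in 1 or more of the comparisons, and their promoters are shown for that reason. The sequences run 5′ to 3′ on the strand of the gene, from 250 bases before the start to 50 bases after the start, and come from RefSeq (GRCh38.p14). The retinoic acid receptor gene RARB has the promoter chr3:25428013-25428312 on the plus strand. The thyroid hormone receptor gene THRB has chr3:24495659-24495958 on the minus strand. NR2F1, which encodes the orphan receptor COUP-TF1, has chr5:93582972-93583271 on the plus strand, and the mineralocorticoid receptor gene NR3C2 has chr4:148442365-148442664 on the minus strand. Capitals mark a repeat of GTTCA in RARB and the reverse complement of GTGGGAG, the core of binding sites of the BASP1 partner WT1, in THRB.
RARB: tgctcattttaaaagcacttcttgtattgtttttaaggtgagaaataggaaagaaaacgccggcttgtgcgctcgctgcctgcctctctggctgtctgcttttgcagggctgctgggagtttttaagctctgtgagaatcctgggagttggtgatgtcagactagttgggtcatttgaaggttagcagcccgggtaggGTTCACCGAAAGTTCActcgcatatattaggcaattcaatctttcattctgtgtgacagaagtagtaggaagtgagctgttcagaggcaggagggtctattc
THRB: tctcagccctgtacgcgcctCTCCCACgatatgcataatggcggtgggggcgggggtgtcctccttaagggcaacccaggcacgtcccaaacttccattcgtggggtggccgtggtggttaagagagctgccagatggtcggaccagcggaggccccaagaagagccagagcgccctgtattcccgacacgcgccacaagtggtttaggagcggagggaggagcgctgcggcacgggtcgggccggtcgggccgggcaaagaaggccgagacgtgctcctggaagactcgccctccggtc
NR2F1: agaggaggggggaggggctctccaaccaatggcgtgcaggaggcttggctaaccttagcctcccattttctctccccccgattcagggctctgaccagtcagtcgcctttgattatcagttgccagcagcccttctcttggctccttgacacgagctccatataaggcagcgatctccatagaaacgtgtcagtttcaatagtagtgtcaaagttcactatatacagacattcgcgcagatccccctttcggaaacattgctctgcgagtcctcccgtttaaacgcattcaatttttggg
NR3C2: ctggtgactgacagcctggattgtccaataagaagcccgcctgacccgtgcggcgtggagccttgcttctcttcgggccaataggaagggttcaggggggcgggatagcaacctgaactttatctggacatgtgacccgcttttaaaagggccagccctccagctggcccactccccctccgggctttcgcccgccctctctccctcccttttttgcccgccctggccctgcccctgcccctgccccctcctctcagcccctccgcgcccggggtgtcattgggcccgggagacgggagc

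The half-site AGGTCA was searched on both strands and was in none of these 4 sequences, against 13.8% of the 35116 RefSeq promoters of the same length. GTGGGAG, which occurred in 10.7% of all promoters, matched once in THRB and not in the other 3. A spaced repeat, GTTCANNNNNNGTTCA, was found in 20 promoters (0.057%), among them RARB, where it reads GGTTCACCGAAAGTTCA with its preceding base and its first capital lies at position -52 from the start. This last motif was chosen with the RARB sequence in view. The GC content of the 4 promoters was 46.7% in RARB, 65.7% in THRB, 51.3% in NR2F1 and 65.7% in NR3C2. No entry was used for VDR.

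Levels were compared between genes as normalised read count per kb of exon, called the level below. In V-K562 the highest level was that of NR2F6, which encodes the orphan receptor EAR2, at 1180 ± 14.8 (SD, n = 3). ESRRA, the estrogen-related receptor of mitochondrial gene control, followed at 948 ± 62.8, NR1H2, the ubiquitous liver X receptor, at 775 ± 14.8, and RXRB, a common heterodimer partner, at 661 ± 14.4. PPARD stood at 473 ± 15.5 and ESRRB at 341 ± 21.3, and the next neighbours in the order, NR2C2 and THRA, both at 271, overlapped in range. The median over all tested genes was 176 in V-K562. In B-K562 the same 4 genes led, with NR2F6 at 1486, ESRRA at 1106, NR1H2 at 913 and RXRB at 599, followed by THRA at 401 and NR6A1 at 363. In G-K562 NR2F6 stood at 1282, while NR1H2 at 943 and ESRRA at 936 overlapped, with RXRB at 714, ESRRB at 559 and PPARD at 496 behind them. In V-K562 the libraries of NR3C1, NR6A1, RXRA and NR2F2, at 208, 208, 201 and 195, overlapped from each to the next, as did NR4A1, NR1D1 and NR1H3 at 110, 108 and 108. The classical steroid receptor genes PGR, ESR2, NR3C2 and ESR1 were in the lower part of the order in V-K562, and NR3C1 (glucocorticoid receptor) lay above the median of all tested genes.

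**Figure D1:**
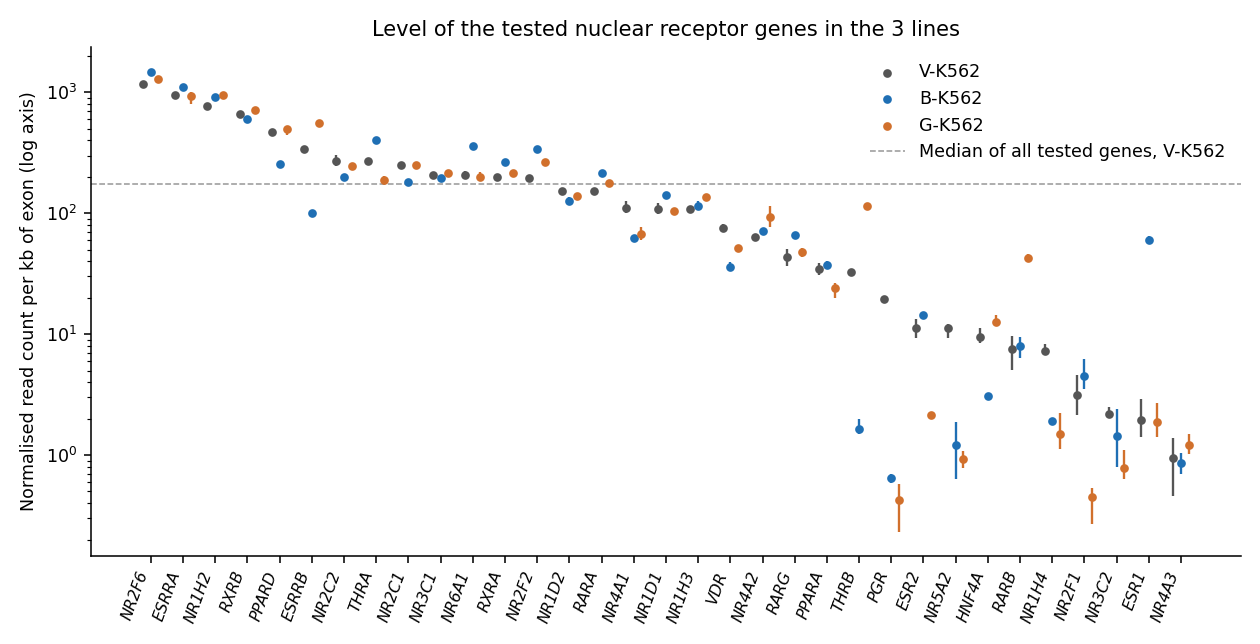
The y axis (log scale) is the normalised read count per kb of exon of each tested receptor gene, ordered by V-K562; points are means of the 3 libraries of a line and bars run from the lowest to the highest library. NR2F6, ESRRA, NR1H2 and RXRB lead in V-K562 and B-K562, and THRB, PGR and ESR1 show the widest gaps between lines.

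The 13 silent genes were PPARG, RORA, RORB, NR1I2, NR1I3, HNF4G, RXRG, NR2E1, NR2E3, ESRRG, NR5A1, NR0B1 and NR0B2. The highest value of any of them in any library was 10 (NR5A1 in V-K562), followed by 9 for ESRRG and 7 for NR2E3, both in G-K562. NR2F1 passed the filter only in the table of V-K562 and B-K562, and NR4A3 only in that of V-K562 and G-K562. NR1H4 and NR5A2 (in both tables), and NR3C2 in the G-K562 table, passed largely through their V-K562 values. The same held for PGR in the G-K562 table, so a difference was built into the passing of these genes. In the direct comparison of G-K562 with B-K562, NR2F1 passed without any G-K562 library, so its fall was built in as well. Counts of called receptor genes below include them.

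The first comparison asks which receptor genes differ between the pool with wild type BASP1 and the V-K562 pool. Between B-K562 and V-K562, 32 receptor genes were tested and 8 (25%) changed at an adjusted p of at most 0.05 and at least 2-fold, which is the meaning of called in what follows. Of all 14958 genes tested, 20.6% were called. THRB, PGR, NR5A2, ESRRB, NR1H4, HNF4A and VDR were lower (background 14.1%) and ESR1 was higher (background 6.46%). By the adjusted p alone 13 receptor genes fell (background 37.2%) and 12 rose (38.6%). The median log2 fold change was 0.083 over the receptor genes and 0.007 over all genes.

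The second comparison asks the same of the pool with BASP1 that cannot be myristoylated. Between G-K562 and V-K562 another 7 of 32 (21.9%) were called, against 19.1% of 15271 genes. PGR, NR5A2, ESR2, NR1H4 and NR3C2 were lower (background 10.3%), and RARB and THRB were higher (background 8.81%). By the adjusted p alone 9 fell (background 33.3%) and 8 rose (33.5%), and the medians were 0.032 over receptor genes and 0.003 over all genes.

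G-K562 was then compared with B-K562 directly, which asks which receptor genes differ between these pools. An effect of the form of BASP1 cannot be told apart here from a difference between pools. Of 33 receptor genes 8 (24.2%) were called, against 29.9% of 15521 genes. ESR1, ESR2, NR2F1 and THRA were lower in G-K562 than in B-K562 (background 12.5%), and THRB, RARB, ESRRB and HNF4A were higher (background 17.4%). NR2F1 passed the filter here through V-K562 and B-K562 only. By the adjusted p alone 14 were lower (background 40.5%) and 11 higher (38.1%), and the medians were -0.213 and -0.023. Across the 3 comparisons 13 of 33 receptor genes (39.4%) were called at least once, against 39.3% of all genes tested.

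**Figure D2:**
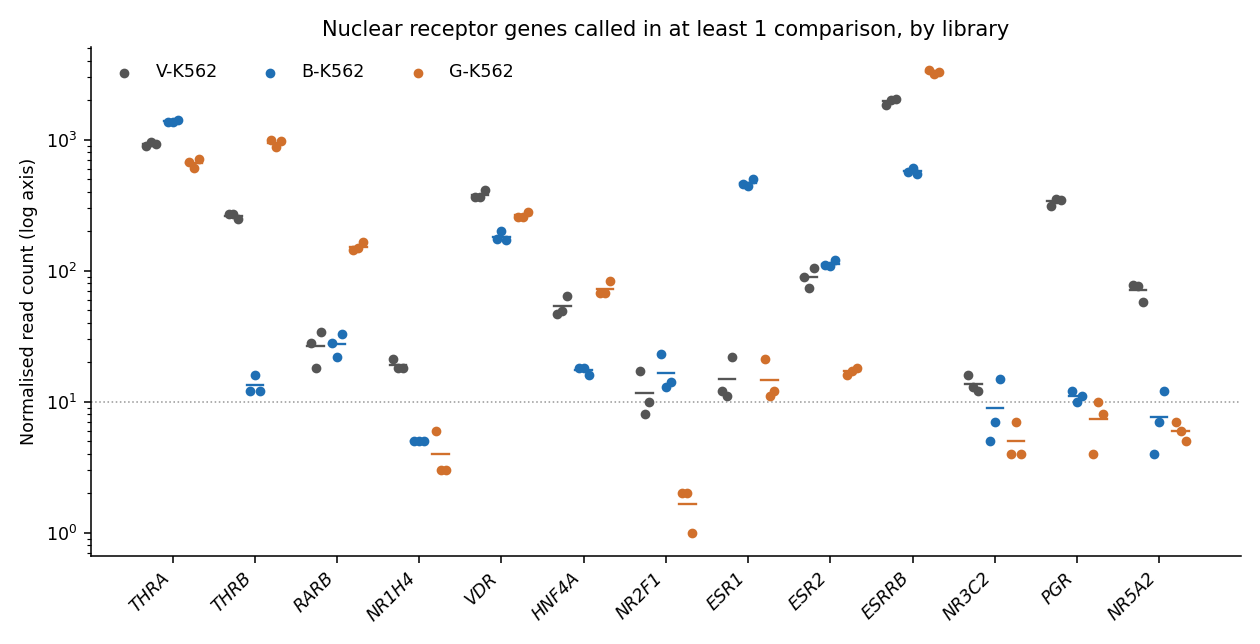
The y axis (log scale) is the normalised read count of the 13 receptor genes called in at least 1 comparison; each point is 1 library, the short line is the mean of 3, and the dotted line marks the value 10 used in the filter. THRB lies near 10 in B-K562 and at 876 to 986 in G-K562, ESR1 is high in B-K562 alone, and PGR and NR5A2 are high in V-K562 alone.

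**Figure D3:**
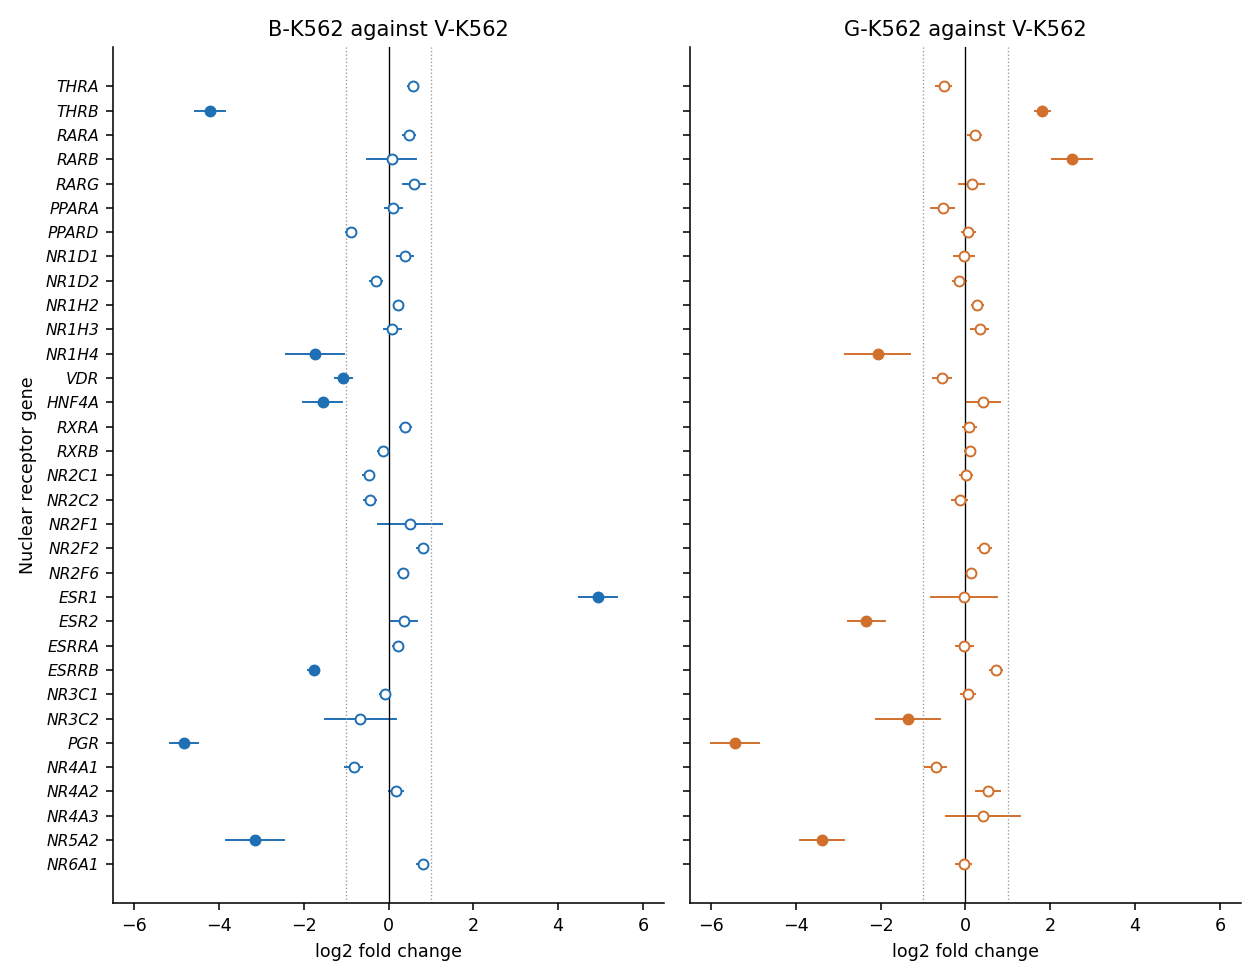
The x axis is the log2 fold change against V-K562 of each tested receptor gene, left for B-K562 and right for G-K562; filled points are called, bars are 95% confidence intervals from limma and dotted lines mark a 2-fold change. THRB and ESRRB lie on opposite sides of 0 in the panels, and PGR, NR5A2 and NR1H4 lie on the lower side in both.

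In the sentences below the values of V-K562 are those deposited beside B-K562; the table with G-K562 holds the same libraries at about 1.017 times these values. The thyroid hormone receptor genes went in different directions. THRB measured 272, 269 and 249 normalised reads in V-K562, 12, 16 and 12 in B-K562 and 986, 876 and 970 in G-K562. No library of 1 line overlapped with another line. THRB was 18.6-fold lower in B-K562 than in V-K562 (log2 fold change -4.22, SE 0.162, adjusted p = 8.5e-11) and 3.51-fold higher in G-K562 (1.81, SE 0.082, adjusted p = 8e-09). In G-K562 it was 65.4-fold higher than in B-K562 (6.03, SE 0.122, adjusted p = 4.5e-14). THRA, the other thyroid hormone receptor gene, measured 896, 966 and 932 in V-K562, 1367, 1363 and 1409 in B-K562 and 679, 604 and 707 in G-K562. It rose in B-K562 (0.57, adjusted p = 4.4e-07), fell in G-K562 (-0.52, adjusted p = 0.00012) and was 2.12-fold lower in G-K562 than in B-K562 (-1.08, SE 0.065, adjusted p = 1.6e-09). The 3′ end of THRA (chr17:40062193-40093867, plus strand) overlaps that of NR1D1 (chr17:40092784-40100725, minus strand), and since the strand setting of the counting is not given in the sources used here, part of either count may belong to the other gene. THRB and THRA were called in opposite directions when G-K562 was compared with B-K562.

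Among the retinoic acid receptor genes RARB stood apart. RARB measured 28, 18 and 34 in V-K562, 28, 22 and 33 in B-K562 and 143, 148 and 165 in G-K562. The G-K562 libraries were above all others, while V-K562 and B-K562 overlapped. RARB was 5.69-fold higher in G-K562 than in V-K562 (2.51, SE 0.215, adjusted p = 1.3e-06) and 5.31-fold higher than in B-K562 (2.41, SE 0.225, adjusted p = 1.9e-07). Its difference between B-K562 and V-K562 was 0.08 with an adjusted p of 0.8. RARB and THRB are neighbours on chromosome 3, and in G-K562 against V-K562 they had the highest and next highest change among the genes within 5 Mb, whose median was -0.078. RARA, the major retinoic acid receptor of myeloid cells, was 776 to 859 (V-K562), 1078 to 1205 (B-K562) and 940 to 1003 (G-K562). RARA rose by 0.48 in B-K562 (adjusted p = 1.2e-05) and 0.22 in G-K562 (adjusted p = 0.016). RARG rose in B-K562 (0.60, adjusted p = 5e-04), with 132 to 183 in V-K562 and 223 to 251 in B-K562, and its change in G-K562 was 0.15 (adjusted p = 0.35).

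The 14 other genes of retinoid handling gave 9 tested in B-K562 against V-K562, of which 7 fell by the adjusted p and none rose, with a median of -0.37. Over all genes 37.2% fell and 38.6% rose by this criterion in B-K562 and 33.3% fell and 33.5% rose in G-K562, with medians of 0.007 and 0.003, and the counts of the other lists below are to be read against these shares. In G-K562 against V-K562 there were 10 retinoid genes tested, 4 lower and 4 higher, and 2 of the 10 had all libraries of 1 line under 10, so that a difference was built into their passing the filter. ALDH1A1, an enzyme that makes retinoic acid, measured 673, 669 and 896 in V-K562, 154, 144 and 159 in B-K562 and 4014, 4933 and 4872 in G-K562. It fell in B-K562 (-2.27, SE 0.109, adjusted p = 5.4e-10) and rose in G-K562 (2.61, SE 0.115, adjusted p = 6.8e-09). CYP26A1, the enzyme that degrades retinoic acid, went the same ways. It measured 194, 194 and 189 in V-K562, 36, 45 and 47 in B-K562 and 409, 420 and 445 in G-K562, changes of -2.16 (SE 0.138, adjusted p = 7.9e-09) and 1.11 (SE 0.088, adjusted p = 6.4e-07). STRA6, the membrane receptor that takes up retinol, fell in G-K562 (-2.57, SE 0.219, adjusted p = 1.2e-06).

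Against V-K562, the largest rise of a receptor gene was that of ESR1 in B-K562 and the largest fall that of PGR in G-K562. ESR1, which encodes estrogen receptor alpha, measured 12, 11 and 22 in V-K562, 459, 444 and 502 in B-K562 and 21, 11 and 12 in G-K562. All 3 B-K562 libraries were far above the rest, which overlapped. ESR1 was 30.6-fold higher in B-K562 than in V-K562 (4.94, SE 0.208, adjusted p = 1.8e-10) and 31.6-fold lower in G-K562 than in B-K562 (-4.98, SE 0.272, adjusted p = 5.5e-10). Its change in G-K562 against V-K562 was -0.04 (SE 0.355, adjusted p = 0.93). ESR2, for estrogen receptor beta, measured 89, 74 and 105 in V-K562, 111, 108 and 121 in B-K562 and 16, 17 and 18 in G-K562. ESR2 was 5.05-fold lower in G-K562 compared to V-K562 (-2.34, SE 0.195, adjusted p = 1e-06) and 6.46-fold lower than in B-K562 (-2.69, SE 0.164, adjusted p = 1.7e-09). In B-K562 it rose by 0.35 (adjusted p = 0.039).

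PGR, the progesterone receptor gene, measured 312, 355 and 346 in V-K562, 12, 10 and 11 in B-K562 and 4, 10 and 8 in G-K562. It was 28.2-fold lower in B-K562 (-4.82, SE 0.15, adjusted p = 1.4e-11) and 43.5-fold lower in G-K562 (-5.44, SE 0.259, adjusted p = 1.2e-08). Here the lines that express BASP1 lay next to each other, with a log2 difference of G-K562 from B-K562 of -0.62 (SE 0.26, adjusted p = 0.041). The 23 genes tested within 5 Mb of PGR had a median change of 0.782 in G-K562. NR3C2, the mineralocorticoid receptor gene, was near the limit of the filter, with 16, 13 and 12 in V-K562, 5, 7 and 15 in B-K562 and 4, 7 and 4 in G-K562. It fell in G-K562 (-1.35, SE 0.342, adjusted p = 0.0043), and 1 B-K562 library overlapped V-K562. NR3C1, for the glucocorticoid receptor, ranged over 1940 to 2213 (V-K562), 1888 to 2034 (B-K562) and 2053 to 2347 (G-K562), with changes of -0.085 (adjusted p = 0.2) and 0.059 (adjusted p = 0.49).

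Genes known to respond to estrogen (7, of which 5 were tested in B-K562 and 6 in G-K562) gave 4 lower (background 37.2%) and none higher (38.6%) by the adjusted p in B-K562, where ESR1 rose. In G-K562 against V-K562 none was lower (background 33.3%) and 5 were higher (33.5%), and the medians were -0.254 and 0.789. TFF1 reached the filter through G-K562 alone, so its rise was built into its passing, and without TFF1 there were 4 higher with a median of 0.5. IGFBP4 fell in B-K562 (-1.66, SE 0.044, adjusted p = 3.8e-12), and TFF1 was at 0 to 1 reads in V-K562 and 11 to 15 in G-K562. CTSD, a lysosomal protease, rose in G-K562 by 1.11 (SE 0.059, adjusted p = 2.8e-08). Of 7 glucocorticoid targets, 3 fell and 3 rose in B-K562 and 2 fell and 3 rose in G-K562 (backgrounds 37.2%, 38.6%, 33.3% and 33.5% in this order), with medians of -0.038 and 0.359. TSC22D3 went down in B-K562 (-1.76, SE 0.146, adjusted p = 1.1e-07) and up in G-K562 (1.06, SE 0.139, adjusted p = 3.9e-05), and the kinase gene SGK1 rose in G-K562 (1.32, SE 0.112, adjusted p = 1.2e-06).

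ESRRB encodes an estrogen-related receptor known for its role in pluripotent cells. It measured 1825, 2014 and 2044 in V-K562, 570, 610 and 546 in B-K562 and 3376, 3160 and 3271 in G-K562, with no overlap between lines. ESRRB was 3.4-fold lower in B-K562 (-1.77, SE 0.064, adjusted p = 5.2e-11) and rose in G-K562 by 0.71 (SE 0.063, adjusted p = 1.5e-06). The 201 genes tested on chromosome 14 beyond 70 Mb, where ESRRB lies, had a median change of 0.618 in G-K562, so ESRRB was 0.096 above that median. In B-K562 the median over this stretch was 0.006 and ESRRB minus that median was -1.77. G-K562 was 5.58-fold above B-K562 (2.48, SE 0.061, adjusted p = 2.1e-13), with a regional median of 0.608. ESRRA, the abundant member of the group, rose by 0.22 in B-K562 (adjusted p = 0.0024) and changed by -0.03 in G-K562 (adjusted p = 0.82).

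NR5A2, for the liver receptor homologue LRH-1, measured 78, 76 and 58 in V-K562, 4, 7 and 12 in B-K562 and 7, 6 and 5 in G-K562. It was 8.84-fold lower in B-K562 (-3.14, SE 0.319, adjusted p = 7.9e-07) and 10.4-fold lower in G-K562 (-3.38, SE 0.24, adjusted p = 2.7e-07). B-K562 and G-K562 overlapped, with a difference of -0.23 (SE 0.333, adjusted p = 0.54). NR6A1, for the germ cell nuclear factor, rose in B-K562 from 1356 to 1592 reads to 2527 to 2590 (0.81, adjusted p = 3.1e-08), and its change in G-K562 was -0.04 (adjusted p = 0.64).

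VDR, the vitamin D receptor gene, measured 363, 366 and 414 in V-K562, 175, 201 and 170 in B-K562 and 257, 255 and 281 in G-K562. The 3 lines did not overlap. It was 2.09-fold lower in B-K562 (-1.06, SE 0.096, adjusted p = 2.5e-07) and fell by less than 2-fold in G-K562 (-0.55, SE 0.095, adjusted p = 0.00033). Of the vitamin D enzymes, CYP2R1, which makes the circulating form, fell in B-K562 (-1.19, SE 0.066, adjusted p = 2.3e-09). CYP27B1, which makes the active hormone, rose in B-K562 (1.31, SE 0.14, adjusted p = 1.4e-06). CYP27A1 was at 3 to 6 reads in V-K562 and 16 to 25 in G-K562, and reached the filter through G-K562 alone. These were 2 tested genes in B-K562 and 3 in G-K562, where 2 rose, CYP27A1 included, and none fell.

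Among the receptors of fatty acids, oxysterols and bile acids only NR1H4 was called. PPARD fell in B-K562 from 2362 to 2509 reads to 1280 to 1339 (-0.89, adjusted p = 2e-09), a change under 2-fold, and changed by 0.07 in G-K562 (adjusted p = 0.41). PPARA, the receptor of fibrates, fell in G-K562 (-0.53, adjusted p = 0.0027), from 335 to 418 reads to 221 to 293. NR1H2 rose in both lines (0.24 in B-K562 and 0.28 in G-K562), and NR1H3, its paralogue in macrophages and liver, rose in G-K562 (0.34, adjusted p = 0.0059). NR1H4, the bile acid receptor gene, measured 21, 18 and 18 in V-K562, 5, 5 and 5 in B-K562 and 6, 3 and 3 in G-K562. It was 3.33-fold lower in B-K562 (-1.73, SE 0.315, adjusted p = 2e-04) and 4.2-fold lower in G-K562 (-2.07, SE 0.346, adjusted p = 0.00025).

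Of 7 liver X receptor targets 5 were tested in B-K562, with 4 lower (background 37.2%) and 1 higher (38.6%) by the adjusted p, and 7 in G-K562, with 2 lower (33.3%) and 4 higher (33.5%). The cholesterol exporters ABCA1 and ABCG1 were at no more than 10 reads in V-K562 and B-K562 and at 23 to 35 in G-K562. Both reached the filter through their G-K562 values, so their rise was built into their passing, and they are 2 of the 4 higher genes. Among 7 tested PPAR targets 4 fell and 3 rose in B-K562, and 4 fell and 2 rose in G-K562 (the same backgrounds), with medians of -0.632 and -0.2. PDK4, a kinase that holds back glucose oxidation, fell in both lines (-3.17, SE 0.107, adjusted p = 2.7e-11, and -2.89, SE 0.118, adjusted p = 3.7e-09). ANGPTL4, an inhibitor of lipoprotein lipase, fell in B-K562 (-1.97, SE 0.3, adjusted p = 4.1e-05) and rose in G-K562 (1.85, SE 0.188, adjusted p = 4.8e-06). CD36, a fatty acid transporter gene that passed in G-K562 through its V-K562 values, was listed at 0 in all 3 G-K562 libraries against 17, 20 and 19 in V-K562.

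HNF4A, a receptor of liver and gut cells, measured 47, 49 and 64 in V-K562, 18, 18 and 16 in B-K562 and 68, 67 and 83 in G-K562. It was 2.94-fold lower in B-K562 (-1.56, SE 0.21, adjusted p = 1.3e-05) and 3.94-fold higher in G-K562 compared to B-K562 (1.98, SE 0.183, adjusted p = 1.7e-07). NR2F1 measured 17, 8 and 10 in V-K562, 23, 13 and 14 in B-K562 and 2, 2 and 1 in G-K562, where all libraries were below the others. It was lower in G-K562 than in B-K562 (-2.73, SE 0.391, adjusted p = 1.6e-05), and its fitted value is sensitive to the pseudocount of 1 at these counts. NR2F2, for COUP-TF2, rose in both lines (0.80 in B-K562, adjusted p = 2.1e-08, and 0.44 in G-K562, adjusted p = 0.00019). NR2F6 rose in B-K562 (0.33, adjusted p = 1.6e-05). The retinoid X receptors changed by under 2-fold. RXRA was 1331 to 1514 (V-K562), 1887 to 1929 (B-K562) and 1481 to 1663 (G-K562) and rose in B-K562 (0.40, adjusted p = 2.4e-05), whereas RXRB fell there (-0.14, adjusted p = 0.019). NR2C1 and NR2C2, the testicular receptors, both fell in B-K562 (-0.47 and -0.44), with changes of 0.01 and -0.14 in G-K562 that did not pass.

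NR1D1 and NR1D2 encode the REV-ERB receptors, which repress clock genes. NR1D1 rose in B-K562 (0.38, adjusted p = 0.0015), with the overlap with THRA given above, and NR1D2 fell there (-0.29, adjusted p = 0.0014). Neither passed in G-K562, with changes of -0.04 and -0.15. Of 15 clock partners in the table, 12 were tested in B-K562 (5 lower, 4 higher, backgrounds 37.2% and 38.6%) and 15 in G-K562 (4 lower, 6 higher, backgrounds 33.3% and 33.5%). BHLHE40 fell in B-K562 (-2.15, SE 0.064, adjusted p = 9.6e-12), and its paralogue BHLHE41, which passed through G-K562 alone, was at 3 to 6 reads in V-K562 and 224 to 247 in G-K562. HLF rose in both lines (1.48, adjusted p = 0.00026, and 2.26, adjusted p = 7.6e-06). The NR4A genes are known as immediate early genes. NR4A1 fell in both lines (-0.83, adjusted p = 1.7e-06, and -0.70, adjusted p = 0.00021), NR4A2 rose in G-K562 (0.53, adjusted p = 0.0033), and NR4A3 stayed at 4 to 13 reads in V-K562 and G-K562.

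Of 23 coregulator genes 22 were tested. In B-K562 18 rose and 2 fell by the adjusted p, with a median of 0.515, against 38.6% higher and 37.2% lower over all genes. PPRC1, a relative of the coactivator PGC-1, rose in B-K562 by 1.30 (SE 0.05, adjusted p = 7.9e-11) and NCOA5 by 1.27 (SE 0.066, adjusted p = 1.1e-09). In G-K562 11 rose (background 33.5%) and 4 fell (33.3%), with a median of 0.174. NCOA5 rose by 1.14 (SE 0.08, adjusted p = 2.5e-07) and NCOA2 by 1.13 (SE 0.066, adjusted p = 5.7e-08), and PPARGC1B fell (-1.03, SE 0.082, adjusted p = 7.1e-07). Compared with B-K562, 12 coregulator genes were lower (background 40.5%) and 4 higher (38.1%) in G-K562, with a median of -0.238.

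B-K562 and G-K562 share the V-K562 libraries, so their changes are set side by side as values only. By the adjusted p, THRB, ESRRB, THRA and ESR2 changed in opposite directions against V-K562. Each of these 4 was also called in the direct comparison of G-K562 with B-K562. A difference there was largely fixed by picking genes with opposite changes in the same libraries, so it is no further support. The share of all genes with opposite changes was not counted.

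ATAC-seq was read from the peaks that the authors called in each library. The value of a region is its highest summit pileup, a number of tags at equal tag number per library. A library with no peak there, or with fewer than 17 tags after scaling, was set to 17 tags. The log2 changes of such regions are therefore neither measurements nor bounds. Within 5 kb of the 46 genes lay 216 of 85549 merged regions, at 44 genes (none at HNF4G or NR0B1). At 35 genes, 7 of them silent in RNA-seq, a region lay within 1 kb of a transcript start. Against V-K562, 130 regions were tested in B-K562, of which 12 closed (9.23%, background 6.07%) and 1 opened (0.769%, background 1.51%). In G-K562 138 were tested, of which 13 closed (9.42%, background 13.0%) and 2 opened (1.45%, background 2.89%). Between G-K562 and B-K562, 156 were tested, 8 were lower in G-K562 (5.13%, background 8.43%) and 12 higher (7.69%, background 4.25%). The scaling between libraries bears on this split, since without it the median over all regions was 0.188 in place of -0.09 in G-K562 and 0.061 in place of -0.059 in B-K562. Without scaling 5 regions closed and 17 opened in G-K562, and 8 closed and 1 opened in B-K562. The shares over all regions were not counted without scaling, so these counts have no background beside them. Since the 12 closed regions of B-K562 included 5 at THRB and 3 at VDR, they are not independent of one another. Of the called regions, 3 of 13 in B-K562 and 3 of 15 in G-K562 against V-K562, and 10 of 20 between G-K562 and B-K562, had no peak in any library of 1 of the lines compared. Where these are described by gene below, they are given by their tags, without a fitted fold. The fitted values of those between G-K562 and B-K562 are listed only among the flagged results, and they rest on the 17 tags set.

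THRB was the receptor gene with the most called regions. Its start region, chr3:24494212-24495953, which overlaps the promoter shown above and also THRB-AS1, held 37, 39 and 47 tags in V-K562, no called peak in any B-K562 library and 104, 70 and 89 tags in G-K562. With B-K562 set to 17 tags it was called in both comparisons with B-K562, which lay below the other lines. The change in G-K562 against V-K562, 0.73, was under 2-fold (adjusted p = 0.014). A region upstream, chr3:24496615-24496883, had no peak in V-K562 replicate 1 or in B-K562, 32 tags in each of the other V-K562 libraries and 61, 58 and 59 in G-K562. Within the gene, chr3:24156466-24156899 held 60, 55 and 57 tags in V-K562, 16 in 1 B-K562 library and none in the others, and 86, 71 and 80 in G-K562. All B-K562 libraries were set to 17 tags, the 1 with a peak included, and the region was called lower there than in the other lines. The intronic region chr3:24351691-24352567 differed from these. It held 113, 70 and 91 tags in V-K562, 22, 24 and 28 in B-K562 and 50, 38 and 53 in G-K562, and it closed in both lines (-1.97, SE 0.231, adjusted p = 0.0022, and -1.27, SE 0.213, adjusted p = 0.0029). In G-K562, where the RNA rose, the change was under 2-fold without scaling (-0.93), by mean pileup (-0.85) and with scaling within GC bins (-0.79). Further inside the gene, chr3:24185698-24186249 (-1.11, adjusted p = 0.0054) and chr3:24259969-24260499 (-1.31, adjusted p = 0.011) closed in B-K562 against V-K562, and 1 B-K562 library had no peak in the latter. The former was under 2-fold without B-K562 replicate 2 (-0.92). The regions chr3:24303327-24303707 (43, 58 and 66 tags in G-K562) and chr3:24483860-24484224 (53, 39 and 56) had no peak in B-K562 and were called higher in G-K562. In all, 5 THRB regions closed in B-K562 and 6 were higher in G-K562 compared to B-K562.

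RARB, the neighbour of THRB, had its highest pileups in G-K562. The region at a transcript start of RARB, chr3:25427951-25428403, held 26, 33 and 38 tags in V-K562, 35, 19 and 21 in B-K562 and 134, 150 and 155 in G-K562. V-K562 and B-K562 overlapped, and G-K562 lay above both. The log2 change was 1.82 against V-K562 (SE 0.164, adjusted p = 0.00033) and 2.34 against B-K562 (SE 0.23, adjusted p = 7.5e-05). Its summit lay 253828 bp into the gene and 103 bases before the transcript start in the promoter shown above, which is that of a shorter transcript. The region chr3:25582178-25582659 was also higher in G-K562 compared to B-K562 (1.06, adjusted p = 0.0018), and by less than 2-fold without B-K562 replicate 3 (0.85). The region chr3:25433903-25434260 held 20, 25 and 27 tags in V-K562, no peak in B-K562 and 66, 45 and 46 tags in G-K562.

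**Figure D4:**
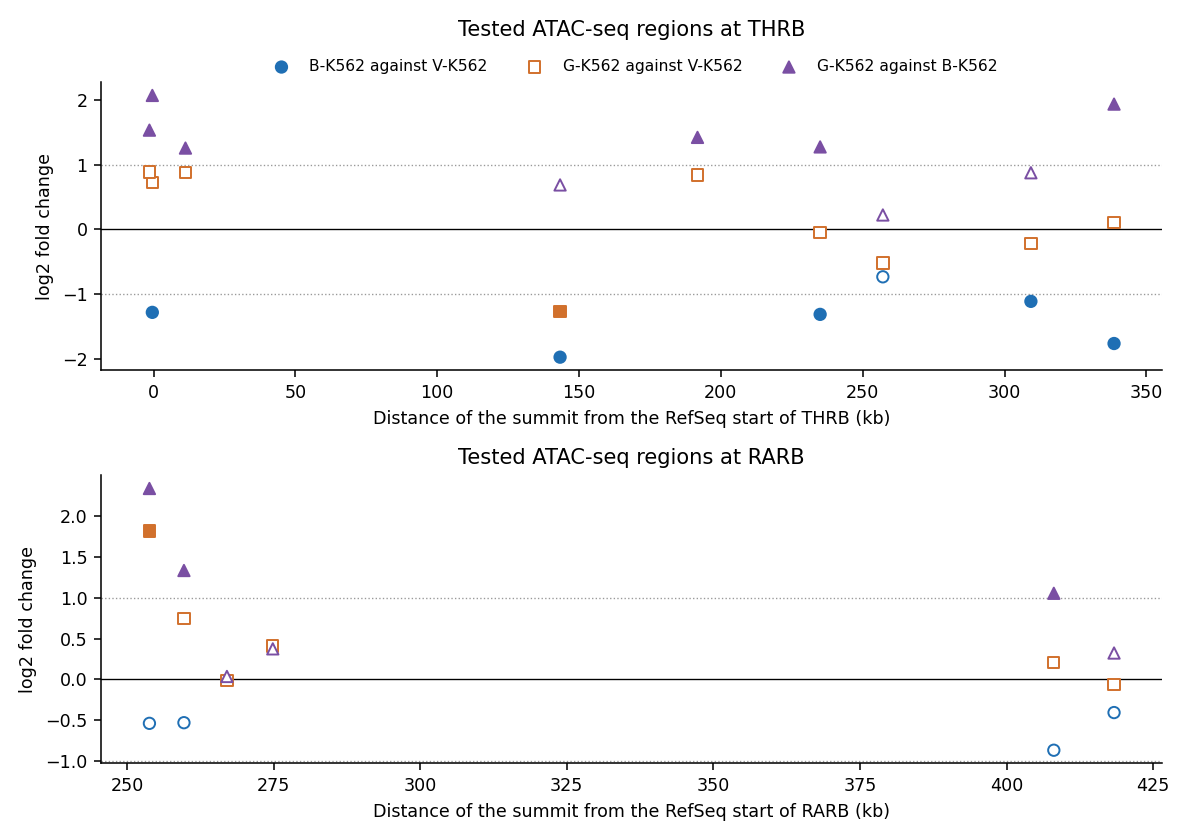
The x axis is the distance in kb of each region's summit from the RefSeq start of THRB (top) or RARB (bottom) and the y axis the log2 fold change in summit pileup; filled symbols are called and dotted lines mark a 2-fold change. The B-K562 points of THRB lie below 0 throughout, and at RARB the highest points are those of G-K562 at the region 253828 bp from the gene's start.

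The other start regions that were called were those of NR2F1 and NR3C2. At NR2F1, chr5:93582740-93583268 held 52, 56 and 49 tags in V-K562, 69, 101 and 96 in B-K562 and 15 in 1 G-K562 library, with no peak in the other G-K562 libraries. All G-K562 libraries were set to 17 tags, the 1 with a peak included, and the region was called lower there than in V-K562 and in B-K562. The size of that fall was not measured. NR2F1 RNA was also lowest in G-K562. At NR3C2, chr4:148442323-148442867 held 71, 69 and 84 tags in V-K562, 117, 86 and 121 in B-K562 and 41, 34 and 43 in G-K562. It was lower in G-K562 compared to V-K562 (-1.25, SE 0.157, adjusted p = 0.00091, and -0.91 without scaling) and than in B-K562 (-1.63, SE 0.16, adjusted p = 7.1e-05). The RNA of NR3C2 fell in G-K562 as well.

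The called regions of VDR lay inside the gene. The start region chr12:47904791-47905352 held 54, 43 and 43 tags in V-K562, 60, 62 and 51 in B-K562 and 83, 55 and 70 in G-K562, and was called in no comparison. By contrast, chr12:47871640-47872009 held 50, 45 and 39 tags in V-K562 and no peak in any B-K562 or G-K562 library, and was called in both. The region chr12:47850663-47851126 held 57, 37 and 57 tags in V-K562, 20 and 24 in the B-K562 libraries with a peak and 19, 30 and 45 in G-K562, whose range overlapped that of V-K562. It was called in both lines (-1.36, adjusted p = 0.0077, and -1.05, adjusted p = 0.036). In G-K562 the call was lost without V-K562 replicate 1 or 3 or G-K562 replicate 1 or 2 (adjusted p = 0.1 to 0.13), without scaling (-0.72, adjusted p = 0.11), by mean pileup (-0.85) and with GC bins (-0.89, adjusted p = 0.087). The last, chr12:47867648-47867975, held 39, 39 and 30 tags in V-K562 and no peak in B-K562, where it was called.

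**Figure D5:**
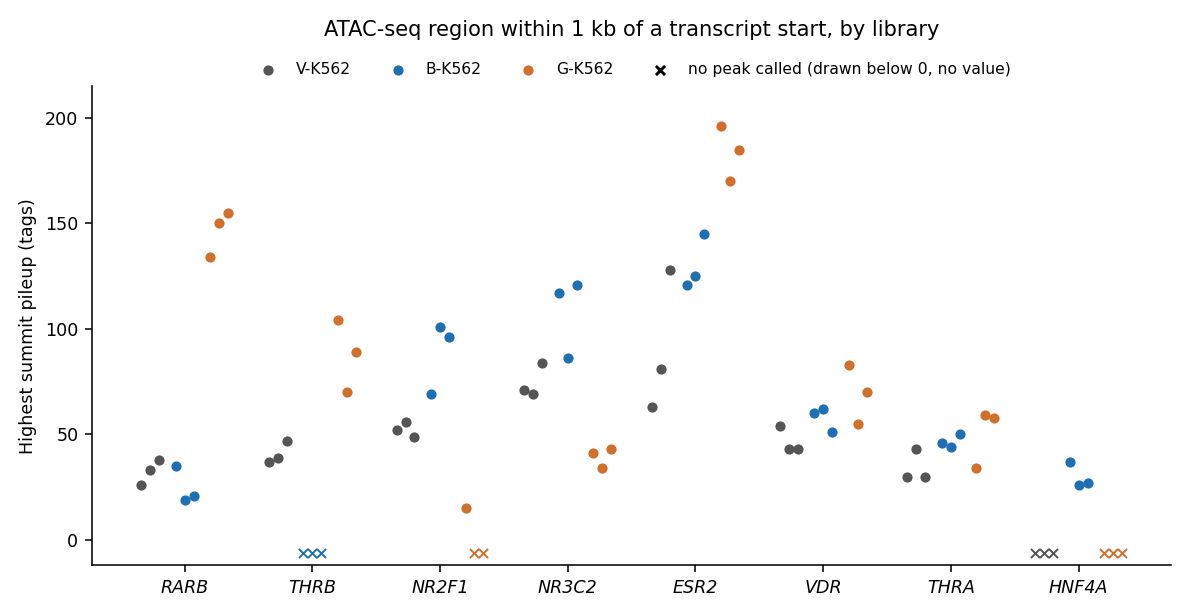
The y axis is the highest summit pileup in tags of the region at a transcript start of 8 receptor genes; each point is 1 library, and crosses below 0 mark libraries with no called peak, which have no value. RARB is high in G-K562 (134 to 155 tags), THRB has no peak in B-K562, and ESR2 is highest in G-K562 (170 to 196 tags).

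At other genes the pileup and the RNA are set side by side. ESR2 RNA was lowest in G-K562, yet the start region chr14:64337923-64339208 held 63, 81 and 128 tags in V-K562, 121, 125 and 145 in B-K562 and 196, 170 and 185 in G-K562, an increase under 2-fold in G-K562 (0.73, SE 0.23, adjusted p = 0.038). Its other start region, chr14:64294307-64295079, had peaks of 20 and 15 tags in V-K562 replicates 1 and 3, of 19, 15 and 27 tags in B-K562 and none in G-K562, and was called in no comparison. NR5A2 RNA was low in both B-K562 and G-K562, but its region chr1:200154125-200154651 held 138, 160 and 119 tags in V-K562, 148, 135 and 154 in B-K562 and 55, 32 and 33 in G-K562. That region fell in G-K562 (-2.15, SE 0.225, adjusted p = 0.00049 against V-K562, and -2.09, SE 0.199, adjusted p = 6.2e-05 against B-K562). A second NR5A2 region, chr1:200150709-200151023, held 50, 46 and 47 tags in V-K562, 38, 45 and 36 in B-K562 and 22 in 1 G-K562 library with no peak in the others, which were set to 17 (-1.52, SE 0.167, adjusted p = 0.00055 against V-K562). For ESR1, which was high in B-K562, no region lay at a start, and chr6:152095149-152095594, inside an intron, held 25, 48 and 44 tags in V-K562, 60, 46 and 60 in B-K562 and 41, 26 and 26 in G-K562 (-1.04, SE 0.279, adjusted p = 0.02 for G-K562 against B-K562). That call was lost without B-K562 replicate 1 or 3 or G-K562 replicate 2 or 3 (adjusted p = 0.067 to 0.085), without scaling (-0.84) and with GC bins (-0.90). The only region at PGR, chr11:101049070-101049491, held 30, 34 and 21 tags in V-K562 and no peak in B-K562 or G-K562. It was called in no comparison, and the size of any difference was not measured. THRA had a start region, chr17:40062690-40063523, of 30, 43 and 30 tags in V-K562, 46, 44 and 50 in B-K562 and 34, 59 and 58 in G-K562, called in no comparison. A region at an inner transcript start of HNF4A, chr20:44400774-44401152, had peaks in B-K562 alone (37, 26 and 27 tags). The gene itself begins at chr20:44355801. HNF4A RNA, counted over the whole gene, was lowest in B-K562. Another HNF4A region, chr20:44394545-44395140, was lower in G-K562 compared to V-K562 (-1.10, SE 0.244, adjusted p = 0.0094), with 2 G-K562 libraries without a peak. It lost the call without V-K562 replicate 3 (-0.86) or G-K562 replicate 3 (adjusted p = 0.051).

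At RORA, whose RNA was nearly silent, a region was called lower in G-K562. The region chr15:60615036-60615766 held 51, 82 and 72 tags in V-K562, 110, 89 and 98 in B-K562 and no peak in G-K562. The 1 region that opened in B-K562 lay at RXRA, chr9:134356944-134357412, with 34, 46 and 42 tags in V-K562, 103, 109 and 106 in B-K562 and 67, 71 and 55 in G-K562 (1.22, SE 0.148, adjusted p = 0.0023). At the testicular receptor gene NR2C2, chr3:15040826-15041254 closed in both lines (-1.59, adjusted p = 0.0058, with 1 B-K562 library without a peak, and -1.02, adjusted p = 0.0064). In G-K562 it was under 2-fold without V-K562 replicate 1 or 3 or G-K562 replicate 1 (-0.99 to -0.83). The ATAC-seq regions of ESRRB and NR1H4 that lay nearest their starts were called in no comparison.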

How the data were processed

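RNA-seq (TruSeq stranded mRNA) and ATAC-seq were measured in 3 samples of each line. The authors aligned reads to GRCh38 (STAR, and BWA-MEM for ATAC-seq), counted RNA-seq reads with Subread over RefSeq genes and divided counts by DESeq2 size factors. The deposited values are whole numbers, a rounded normalised count treated here as a score and not as raw counts, so no count model was run. For ATAC-seq the authors called peaks per library with MACS2 at an equal number of tags, and the deposited signal is a summit or mean pileup. Deposited columns of fold changes and p-values were not used.

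Genes at 10 or above in at least 3 libraries were tested with limma 3.58.1 (trend, R 4.3.3) on log2(value + 1), on which scale fold changes understate low genes. P-values were Benjamini-Hochberg adjusted over all genes. The direct comparison of G-K562 with B-K562 used 1 fit of all 9 libraries, with B-K562 values multiplied by 1.017, the mean ratio of the shared V-K562 libraries. Peaks were merged over libraries, scaled by a trimmed mean (30% and 5%), set to at least 17 tags and tested in the same way. The starts of regions are printed as the deposited start plus 1, as 1-based coordinates, and may be off by 1 base. A region belonged to a gene within 5 kb. Every receptor gene is named, those called get every library, and up to 4 called genes of each other list are named. Some genes of those lists are counted but not reported here by name. The receptor genes and all lists were chosen with earlier results of these data known. The scripts were tested on simulated data. The 9 RNA libraries have similar depth (totals in the report), and the intervals cover the spread between 3 samples per line. Levels used RefSeq exon lengths. Promoters came from RefSeq, read with Python 3.11.15, and 41 of 46 symbols matched.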

Additional observations from a re-analysis of the deposited data

Results flagged for a closer look

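The results below were singled out because the change against V-K562 differed between B-K562 and G-K562, tested by the direct comparison of G-K562 with B-K562 (limma, log2 scale, G-K562 minus B-K562). Groups of 3 samples are too small for a test of single outlying samples. No explanation was tested.

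In RNA-seq the difference was -4.98 for ESR1, -2.69 for ESR2, 2.48 for ESRRB, 1.98 for HNF4A, 2.41 for RARB, -2.73 for NR2F1, -1.08 for THRA and 6.03 for THRB. For THRB, ESRRB, THRA and ESR2 the changes of the lines against V-K562 had opposite signs. The 203 genes tested on chromosome 14 beyond 70 Mb, where ESRRB lies, had a median difference of 0.608.

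In ATAC-seq the regions higher in G-K562 were 6 at THRB (1.94, 1.27, 1.42, 1.26, 2.07 and 1.53), 3 at RARB (2.34, 1.33 and 1.06), 2 at RXRA (1.24 and 1.06) and 1 at NR4A2 (1.37). Those lower in G-K562 were 1 at ESR1 (-1.04), 2 at NR5A2 (-1.11 and -2.09), and 1 each at NR5A1 (-1.53), NR3C2 (-1.63), PPARA (-1.41), RORA (-2.47) and NR2F1 (-2.30). The region at NR5A1 also lies near NR6A1. No peak was present in any library of 1 line, so that the value rests on the 17 tags set there, for the THRB values 1.42, 1.26, 2.07 and 1.53, the RARB value 1.33, both RXRA values and those of NR4A2, NR5A1 and RORA. The THRB value 1.94 and the NR2F1 value -2.30 rest on it as well. There the lower line had a peak in 1 library, which was under 17 tags and was also set to 17. The RXRA value 1.24 did not pass with any single B-K562 or G-K562 library left out (adjusted p = 0.053 to 0.075), and the RXRA value 1.06 was under 2-fold without G-K562 replicate 2 (0.95) or 3 (0.995). The ESR1 value did not pass without B-K562 replicate 1 or 3 or G-K562 replicate 2 or 3 (adjusted p = 0.067 to 0.085), and the RARB value 1.06 was 0.85 without B-K562 replicate 3.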

How the results depend on the processing

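Of 355 values of the called receptor genes under the alternatives, 352 kept the call. VDR (-0.89) and NR1H4 (-0.98) lost it in B-K562 under quantile normalization, and NR3C2 (-0.94) in G-K562 with a pseudocount of 5. Of 607 values of called ATAC-seq regions 540 kept it, 20 of 48 called changes lost it somewhere, and none reversed. Counts are given as lower and higher (or closed and opened). For the altered fits, and for ATAC-seq without a fold criterion, the shares over all genes or regions were not counted. Those counts have no background beside them and cannot be read as results about the receptor genes. Without a criterion on the fold change the receptor genes passing were 13 and 12 in B-K562 and 9 and 8 in G-K562 against V-K562, and 14 and 11 between G-K562 and B-K562. Quantile normalization gave 2 higher in B-K562, requiring 10 in every library gave 1 lower in G-K562, and no filter gave 4 higher in G-K562 and 7 higher in G-K562 against B-K562. Leaving out 1 library gave 7 to 8 and 1 to 1 in B-K562, 5 to 5 and 2 to 2 in G-K562, and 4 to 4 and 4 to 5 between them. For ATAC-seq in B-K562 the closed regions were 7 by mean pileup, 5 with a peak required in every library and 22 without a fold criterion, and the opened regions were 2 with a floor of 10, 2 with the replicate block, 2 with scaling within GC bins (added after seeing the data), 3 within 10 kb and 11 without a fold criterion. In G-K562 closed regions were 5 without scaling, 7 by mean pileup, 7 with a peak in every library and 27 without a fold criterion, and opened regions were 17 without scaling, 1 with a peak in every library, 6 with a floor of 10, 4 with the replicate block, 4 with GC bins and 29 without a fold criterion. Between G-K562 and B-K562 closed regions were 3 with a peak in every library and 15 without a fold criterion, and opened regions 2 and 20. Leaving out 1 library gave 9 to 14 closed and 1 to 2 opened in B-K562, 12 to 13 and 2 to 5 in G-K562 (without V-K562 replicate 2, 2 opened in B-K562 and 5 in G-K562) and 7 to 9 and 10 to 12 between them. The causes were not tested.

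The replicate numbers were not treated as pairs, since the labels do not say that same-numbered samples were prepared together. Deviations of same-numbered RNA-seq libraries correlated at 0.07, 0.041 and 0.001 (V-K562 with B-K562), -0.097, -0.059 and 0.145 (V-K562 with G-K562) and -0.046, -0.079 and -0.017 (B-K562 with G-K562). With the replicate block every called receptor gene kept its call.

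The sign reversed only for genes that were not called. Under quantile normalization NR3C2 was 0.035 in B-K562, ESR1 0.16, NR2C1 -0.013 and NR1D1 0.0018 in G-K562, and NR4A3 -0.048 between G-K562 and B-K562. With 1 library left out, RARB ranged from -0.17 to 0.27 in B-K562, and in G-K562 ESR1 from -0.31 to 0.27, ESRRA from -0.086 to 0.086, NR6A1 from -0.105 to 0.018, NR3C1 from -0.00071 to 0.12, NR2C1 from -0.032 to 0.035 and NR1D1 from -0.099 to 0.054, and NR5A2 from -0.57 to 0.12 between G-K562 and B-K562. The cause was not tested. At values near 10, as for NR3C2, NR2F1 and NR4A3, 3 samples give wide intervals.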
